A study of Mus musculus with 33 samples.

Results

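Bone marrow RNA of 3 mice taken 1 day after ruxolitinib was set against that of the 4 vehicle-treated mice of the same day. The 7 mice were taken from their treatment and day labels, out of 33 mice in 13 groups. Ruxolitinib, an inhibitor of the kinases JAK1 and JAK2, was given by mouth for 2 days to wild type C57BL/6 females of 6 to 8 weeks, at a dose labelled 180 mg/ml and given in the methods as mg/kg. The controls were 2 mice that received the ruxolitinib vehicle, a mixture of DMSO, polyethylene glycol and water, and 2 that received the venetoclax vehicle, a mixture of phosal, polyethylene glycol and ethanol. In the same run 1 untreated mouse was read. RNA of total bone marrow was read on the NanoString nCounter, which counts single barcoded probes bound to their target RNA with no amplification step. Each lane was scaled by its housekeeping probes, and values are normalised counts unless a log2 fold change is named.

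JAK1 and JAK2 sit under the receptors for type I and type II interferons and for many cytokines, and they phosphorylate STAT transcription factors. Under type I interferon, STAT factors with IRF9 bind the interferon-stimulated response element (ISRE) in the promoters of antiviral genes, and STAT dimers bind the GAS element. In resting marrow, low interferon signalling keeps a basal level of these genes, while interleukin 7 and other common gamma chain cytokines, whose receptors use JAK1 with JAK3, sustain lymphocyte precursors.

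The 3 ruxolitinib lanes held 199953 to 256839 endogenous counts, the 4 vehicle lanes 119072 to 442402, and between 68.53% and 74.67% of the 750 endogenous probes were above background in each of the 7 lanes. The untreated mouse of the run gave 47977 counts with 38.53% of probes above background, so its values are shown as single readings of low precision. Neutrophil markers (Elane, Mpo, Camp, Ltf, Lcn2 and S100a8) were abundant. Their summed normalised count was 78817 to 92685 after ruxolitinib and 82250 to 103312 in the vehicle-treated mice. This sum does not tell marrow from another tissue rich in neutrophils. Within a group, no lane was identical to another. Nothing in the labels gives cages or litters, and p-values measure only the spread between mice over all lanes of the series.

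Of 655 genes above background in at least 2 of the 33 lanes, 30 (4.58%) had an adjusted p under 0.05 in edgeR's quasi-likelihood test. Of these, 13 (1.98%) were higher and 17 (2.6%) lower after ruxolitinib, and in all 30 the 3 ruxolitinib-treated mice lay on 1 side of the 4 vehicle-treated mice. Over all genes tested, the ruxolitinib-treated mice lay entirely above the vehicle-treated mice for 101 genes (15.4%) and entirely below for 55 (8.4%), and 411 of the 655 log2 fold changes were above 0, with a median of 0.14. The split between directions moved with the scaling: with TMM in place of the housekeeping probes it was 9 higher and 21 lower, and with all 20 housekeeping probes 9 and 19. It also moved with the test, to 3 and 12 with limma on the same scaling, and to 3 and 17 with DESeq2, which changes both test and scaling and brought the median of all genes to 0.03. With 4.58% of all genes called, a short list with 0 calls is near the share of all genes and is no result about that list. A fit of the 7 lanes alone, which estimates the spread from these mice only, called 54 higher and 39 lower. A single gene compared by an exact permutation test between 3 and 4 mice cannot go below a two-sided p of 0.0571, so the calls rest on the spread estimated across genes and lanes. The 2 vehicles did not differ in any of the 655 genes by edgeR's adjusted p, with 17 genes at an unadjusted p under 0.05, and limma also called 0 genes.

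**Figure D1:**
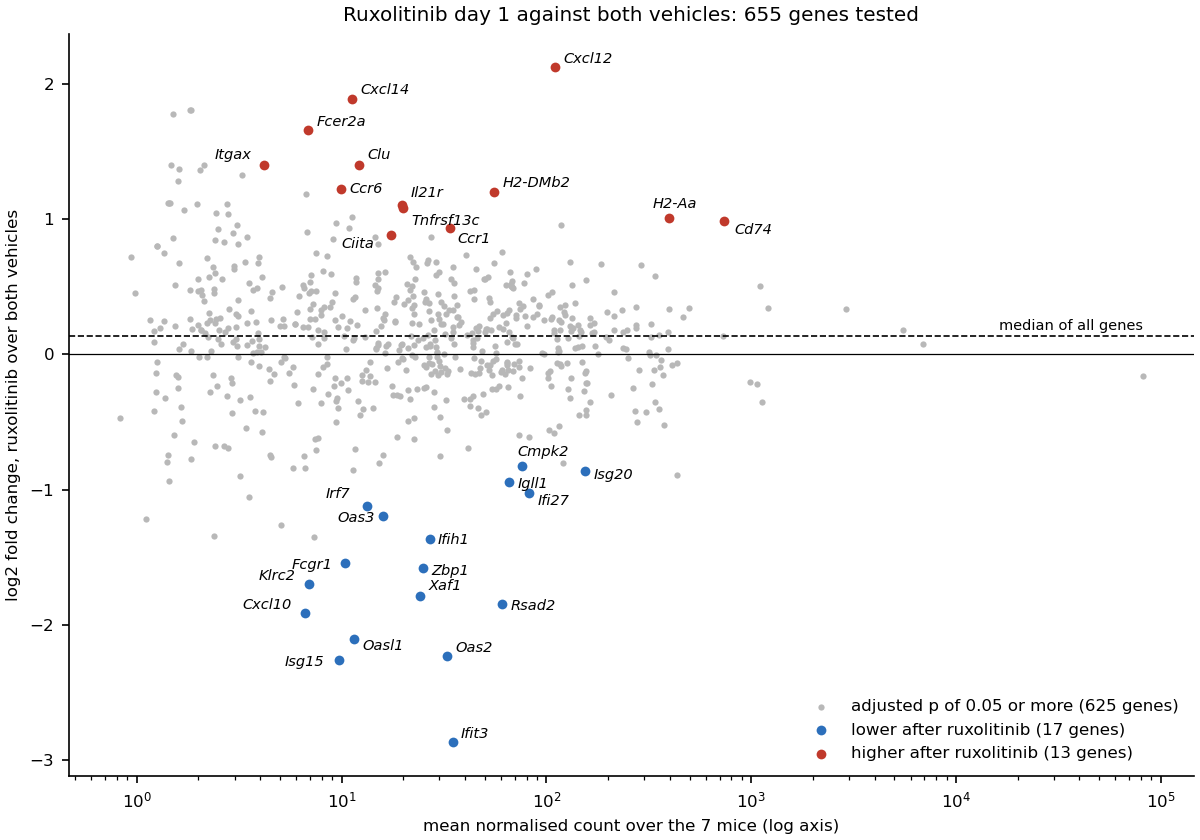
Each point is 1 of 655 genes, with the mean normalised count over the 7 mice on a log axis and the log2 fold change of ruxolitinib over both vehicles. The 17 genes called lower reach -2.87 (Ifit3) and the 13 called higher reach 2.12 (Cxcl12), and the dashed line marks the median of all genes at 0.14.

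Promoters of 3 antiviral genes that fell and of a pair of MHC-II chains are shown as examples that hold the motif letters searched, and were picked for holding them. Oasl1 and Xaf1, which also fell, and H2-DMb2 have windows without the ISRE or Y box letters. Each sequence is the 250 bases before the gene's start in RefSeq (build GRCm38.p6), 5′ to 3′ on the gene's strand, so the last base lies next to the start. In Ifit3, Isg15 and Rsad2 the capitals mark the ISRE letters, GAAA followed by any 2 bases and a second GAAA, searched on both strands with overlaps allowed. In H2-Aa and H2-Eb1 the capitals mark the Y box letters CTGATTGG, a site of the MHC-II promoter that binds the factor NF-Y, also searched on both strands.
Ifit3 (chr19:34583279-34583528, plus strand): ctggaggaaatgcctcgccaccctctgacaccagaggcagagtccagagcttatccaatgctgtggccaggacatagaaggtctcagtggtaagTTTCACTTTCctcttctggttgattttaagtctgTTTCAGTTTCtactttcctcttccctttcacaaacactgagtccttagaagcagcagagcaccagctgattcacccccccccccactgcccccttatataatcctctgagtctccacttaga
Isg15 (chr4:156200819-156201068, minus strand): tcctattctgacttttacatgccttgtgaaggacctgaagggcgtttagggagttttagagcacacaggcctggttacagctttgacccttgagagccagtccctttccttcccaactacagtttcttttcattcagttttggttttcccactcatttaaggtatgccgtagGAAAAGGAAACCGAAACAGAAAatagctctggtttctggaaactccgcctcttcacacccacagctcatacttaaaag
Rsad2 (chr12:26456453-26456702, minus strand): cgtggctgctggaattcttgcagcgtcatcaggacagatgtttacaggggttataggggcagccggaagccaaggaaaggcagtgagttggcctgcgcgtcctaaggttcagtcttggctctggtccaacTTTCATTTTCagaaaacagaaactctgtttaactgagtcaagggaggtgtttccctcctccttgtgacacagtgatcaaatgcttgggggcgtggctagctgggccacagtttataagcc
H2-Aa (chr17:34287824-34288073, minus strand): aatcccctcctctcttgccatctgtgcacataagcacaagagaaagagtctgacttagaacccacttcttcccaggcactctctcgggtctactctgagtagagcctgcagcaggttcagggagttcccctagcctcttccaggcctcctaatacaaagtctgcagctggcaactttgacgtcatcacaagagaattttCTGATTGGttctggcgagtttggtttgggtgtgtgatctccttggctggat
H2-Eb1 (chr17:34305617-34305866, plus strand): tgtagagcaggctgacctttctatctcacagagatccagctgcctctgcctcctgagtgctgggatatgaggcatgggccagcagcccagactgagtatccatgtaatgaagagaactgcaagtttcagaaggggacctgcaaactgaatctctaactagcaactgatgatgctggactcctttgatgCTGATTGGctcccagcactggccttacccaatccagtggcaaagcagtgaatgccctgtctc

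Ifit3 held 2 matches, the first beginning 156 bases before the start, Rsad2 held 1 at 120 bases, and Isg15 held 3 overlapping matches from 78 bases. Windows were found for 24 of the 30 called genes. The ISRE letters were present in 5 of 14 genes called lower (35.7%: Ifit3, Isg15, Rsad2, Oas3 and Cxcl10), in 1 of 10 called higher (10%: Cxcl14), in 8.64% of the 486 tested genes with a window and in 3.46% of 27025 genes. The GAS letters TTCNNNGAA were present in 2 of the 14 lower genes (14.3%), 3 of the 10 higher genes (30%) and 11.9% of the tested genes. The Y box letters were present in 2 of 6 MHC-II genes with a window (33.3%) and 5.56% of the tested genes. These are matches of letters in a short window and not measured binding.

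Ifit3, an antiviral protein induced by type I interferon, fell furthest. It counted 8.16, 8.48 and 6.02 in the ruxolitinib-treated mice, 47.6 and 57.9 after the ruxolitinib vehicle, and 55.0 and 60.5 after the venetoclax vehicle. The ruxolitinib-treated mice were all far below every control, by 7.29-fold (log2 fold change -2.87, SE 0.35, adjusted p = 6.64e-07 by edgeR), and the untreated mouse read 48. Oas2, an enzyme that makes 2′-5′ oligoadenylate when it meets double-stranded RNA, counted 11.3, 7.92 and 12.03 against 43.96 and 45.9, and 55.0 and 53.4, a 4.70-fold fall (log2 -2.23, SE 0.28, adjusted p = 6.64e-07). Rsad2, which encodes viperin, counted 21.97, 31.7 and 19.7 against 81.5 and 80.8, and 89.5 and 101, a 3.59-fold fall (log2 -1.84, SE 0.24, adjusted p = 1.77e-06). Ifit3, Oas2 and Rsad2 were above background in all 7 lanes and kept their calls without any 1 of the mice.

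Isg15, a ubiquitin-like modifier, counted 3.14, 3.96 and 2.19 against 18.3 and 17.1, and 8.63 and 14.3. Its log2 fold change was -2.26 (SE 0.37, adjusted p = 5.54e-05), and with the counts of ruxolitinib-treated mice near background the size of this fall is less certain than its direction. Oasl1 (log2 -2.11) and Cxcl10, a chemokine that draws T and NK cells (log2 -1.92), also fell, and like Isg15 they were above background in 5 of the 7 lanes. Xaf1, a promoter of apoptosis, counted 10.7, 10.2 and 9.3 against 31.1 to 37.3 over the 4 controls, a 3.45-fold fall. Smaller falls that passed the test were those of Oas3 (log2 -1.19), Ifi27 (-1.02), the exonuclease Isg20 (-0.86) and the mitochondrial nucleotide kinase Cmpk2 (-0.83). Without ruxolitinib-treated mouse 1, Cxcl10 had an adjusted p of 0.0633 and Oas3 also 0.0633, and without ruxolitinib vehicle mouse 2 Oas3 had 0.0939. Oas3 also lost its call with limma (0.136) and against the venetoclax vehicle only (0.214), Cmpk2 against the venetoclax vehicle only (0.0654), and Oas3, Cxcl10, Oasl1 and Xaf1 with limma after background subtraction (0.438, 0.249, 0.156 and 0.438). As a group, 11 of 26 tested interferon-inducible genes fell and 0 rose, against 2.6% and 1.98% of all genes, and the list median was -0.86 against 0.14. Within the list 24 of 26 values were below 0, against 244 of 655 over all genes, and 15 of 26 lay below every control, against 8.4%. Most of the 15 genes of the list that did not pass the test overlapped with the controls. Among them were Mx2 (log2 -1.35), Ifi44 (-1.05), Ifit2 (-0.05), Gbp5 (-0.26), Ifitm1 (0.19) and Ifitm2 (0.14). The only ones that did not pass but had all 3 ruxolitinib-treated mice below every control were Ifi35 (-0.63, adjusted p = 0.0868), Bst2 (-0.45, adjusted p = 0.212), Ifit1 (-1.26, adjusted p = 0.246) and Usp18 (-0.84, adjusted p = 0.303).

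Among the sensors of viral nucleic acids 2 fell. Ifih1, which encodes the RNA sensor MDA5, counted 15.1, 13.01 and 14.2 against 32.0 to 43.02 in the controls (log2 -1.37, SE 0.26, adjusted p = 0.000411). Zbp1, a sensor of Z-form nucleic acid that can start cell death, counted 13.8, 14.1 and 7.66 against 24.8 to 39.4 (log2 -1.58, SE 0.31, adjusted p = 0.000629). They were 2 of 13 genes of this list, against 2.6% of all genes, and the median was -0.05, which ran from -0.15 to 0.01 over the alternatives and had its highest value without ruxolitinib vehicle mouse 2. Ddx58, which encodes the related RNA sensor RIG-I, read 35.2, 39.6 and 36.1 against 40.3 to 50.7 and did not pass (log2 -0.33, adjusted p = 0.466).

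Among the 7 interferon regulatory factors, the transcription factors downstream of sensors and receptors, 1 was called lower, against 2.6% of all genes. Irf7 fell from 10.99 to 20.9 in the controls to 7.53, 7.35 and 9.30 (log2 -1.12, SE 0.30, adjusted p = 0.0194). Its call was lost without 3 of the 7 mice, namely ruxolitinib vehicle mouse 2 (adjusted p = 0.127) and ruxolitinib-treated mice 1 (0.0758) and 2 (0.0938). The call of Irf7 was also lost with limma (0.136), with the total count (0.0579) and against either vehicle alone (0.0918 for the ruxolitinib vehicle and 0.0872 for the venetoclax vehicle), and those of Irf7, Ifih1 and Zbp1 with limma after background subtraction (0.754, 0.234 and 0.156). Irf1 was also below every control (58.5 to 74.7 against 77.3 to 84.3, log2 -0.31, adjusted p = 0.429), whereas Irf5 (log2 0.50, adjusted p = 0.303) and Irf8 (log2 0.37, adjusted p = 0.381) were above every control, and none of these passed.

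Of 12 kinases, STAT factors and inhibitors of the JAK-STAT pathway 0 were called, against 4.58% of all genes, with a median of 0.10 that ran from 0.01 to 0.25 over the alternatives, and was 0.04 without ruxolitinib-treated mouse 3, 0.06 without venetoclax vehicle mouse 2 and 0.24 without ruxolitinib vehicle mouse 1. Socs3, a feedback inhibitor, read 7.53, 3.96 and 4.38 against 1.08 to 3.77, near background (log2 0.72, adjusted p = 0.562). Of 15 interferon and myeloid cytokine receptors, 0 were called, against 4.58% of all genes, and 0 lay above or below every control, against 15.4% and 8.4%.

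Among 8 receptors of the common gamma chain and interleukin 4 family, Il21r rose, against 1.98% of all genes. Il21r, the receptor for interleukin 21 on lymphocytes, counted 26.4, 27.1 and 30.6 against 16.5 and 10.3, and 14.03 and 13.5 (log2 1.10, SE 0.29, adjusted p = 0.0167). Without ruxolitinib vehicle mouse 2 its adjusted p was 0.12 and without ruxolitinib-treated mouse 3 it was 0.102. The call of Il21r was also lost with limma (0.272), with limma after background subtraction (0.967), with DESeq2 (0.133), against the ruxolitinib vehicle only (0.0693) and against the venetoclax vehicle only (0.179). Il2rb, the shared beta chain for interleukins 2 and 15, lay below every control at 94.8, 73.0 and 86.4 against 165 and 169, and 128 and 126. Its log2 fold change of -0.80 (SE 0.25) had an adjusted p of 0.0557. The common gamma chain gene Il2rg was above every control (29.5 to 36.2 against 16.7 to 26.4, log2 0.67, adjusted p = 0.162). Il7r was below every control (77.7 to 90.4 against 97.1 to 166, log2 -0.58, adjusted p = 0.201). Only Il21r passed, so no difference in direction between the chains is shown.

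The MHC-II genes, whose products load and present peptides to CD4+ T cells, stood higher as a group. All 9 tested genes lay above all 4 controls in all 3 ruxolitinib-treated mice, against 15.4% of all genes, 4 of the 9 rose by the test against 1.98%, and the median was 0.68 against 0.14. H2-DMb2, a chain of the peptide-exchange factor DM, counted 92.9, 80.9 and 72.8 against 36.6 and 35.6, and 36.7 and 33.5. All 3 ruxolitinib-treated mice were far above the 4 closely spaced controls, and the 2.31-fold rise (log2 1.21, SE 0.23, adjusted p = 0.000555) was kept without any 1 of the mice. Cd74, the invariant chain that guides MHC-II through the cell, counted 812, 1109 and 1163 against 514 and 571, and 533 and 457 (log2 0.99, SE 0.28, adjusted p = 0.0329). Ciita, the master activator of MHC-II transcription, counted 29.5, 18.7 and 24.1 against 14.7 and 15.4, and 8.63 and 11.2 (log2 0.88, SE 0.25, adjusted p = 0.0329). H2-Aa, the alpha chain of I-A, counted 422, 652 and 597 against 321 and 273, and 305 and 210 (log2 1.01, SE 0.31, adjusted p = 0.0498).

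The other 5 genes of the list did not pass the test and had smaller log2 fold changes, from 0.44 for H2-Ob, a brake on DM, to 0.68 for H2-Dma, the partner chain of DM. H2-Ab1, the beta chain of I-A, counted 419, 418 and 423 against 229 to 324 (log2 0.58, adjusted p = 0.115), and H2-Eb1 338, 386 and 378 against 160 to 317 (log2 0.66, adjusted p = 0.123). The calls of H2-Aa and Cd74 were each lost without 6 of the 7 mice, any but ruxolitinib-treated mouse 1, with adjusted p up to 0.234 for H2-Aa and 0.191 for Cd74. That of Ciita was lost without 5, all but ruxolitinib vehicle mouse 2 and ruxolitinib-treated mouse 2, with adjusted p up to 0.2. Under TMM scaling Cd74, Ciita and H2-Aa had adjusted p of 0.0722, 0.088 and 0.0845, under DESeq2 0.0846, 0.273 and 0.11, and against the ruxolitinib vehicle only 0.215, 0.312 and 0.305, so that of the 4 calls that of H2-DMb2 was kept in these fits. With limma after background subtraction H2-DMb2 also lost its call (log2 1.23, adjusted p = 0.937). The untreated mouse read lower than the vehicle-treated mice for Cd74 (221), H2-Aa (160) and H2-DMb2 (12.8) and higher for Ciita (19.2). In its shallow lane the readings of H2-DMb2 and Ciita were below background, so no direction is shown for them. H2-DMb1 and H2-DMb2 are near-identical genes, and a probe for 1 of them may also bind the other.

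**Figure D2:**
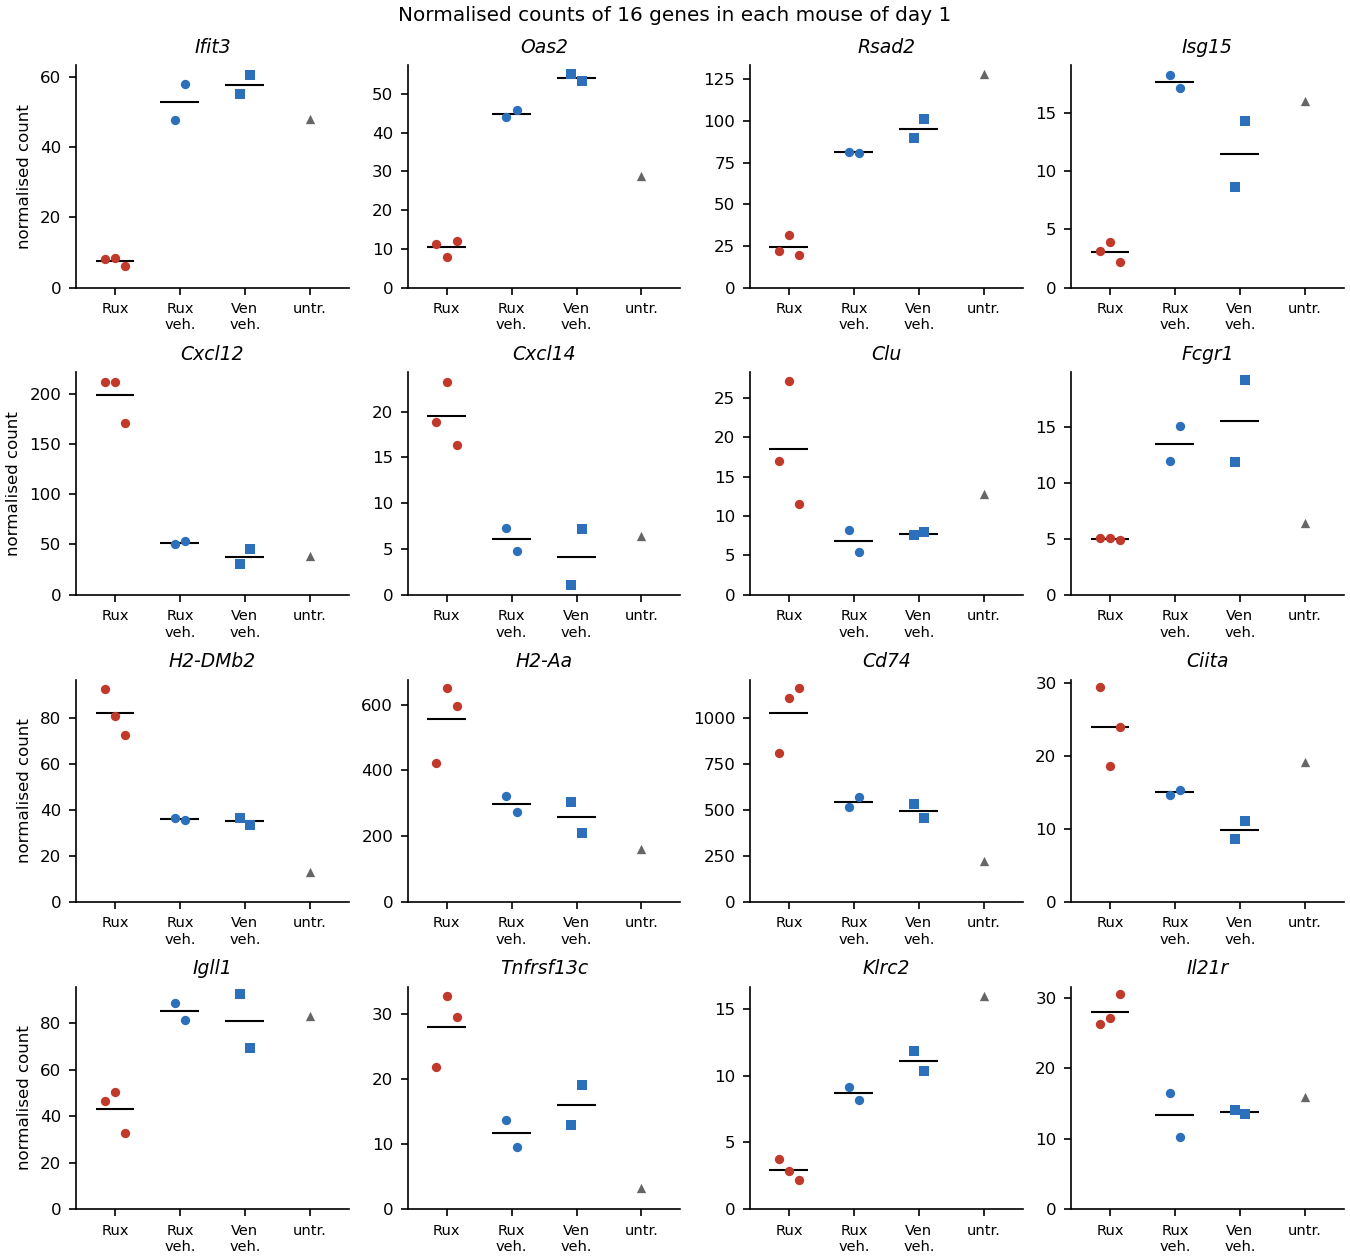
Normalised counts on linear axes from 0 for 16 genes in each mouse of day 1: 3 ruxolitinib-treated mice (Rux), 2 mice of each vehicle (Rux veh., Ven veh.) and 1 untreated mouse (untr.), with bars at group means. In every panel the ruxolitinib-treated mice are separated from the 4 vehicle-treated mice, as for Cxcl12 at 171 to 212 against 30.2 to 53.1.

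MHC-I processing and presentation, which serves CD8+ T cells, had 0 of 18 genes called, against 4.58% of all genes, and its median of -0.13 ran from -0.285 against the ruxolitinib vehicle only to -0.03 against the venetoclax vehicle only. Without single mice it was -0.22 (ruxolitinib-treated mouse 2), -0.08 (ruxolitinib-treated mouse 3) and -0.08 (ruxolitinib vehicle mouse 1). Tap1, a subunit of the peptide transporter, counted 109, 88.2 and 77.7 against 138 and 143, and 128 and 118 (log2 -0.53, SE 0.18, adjusted p = 0.0925). The immunoproteasome subunit Psmb8 (log2 -0.50, adjusted p = 0.123), the non-classical chain H2-T23 (log2 -0.41, adjusted p = 0.128) and the loading chaperone gene Tapbp (log2 -0.44, adjusted p = 0.267) also lay below every control. These were the 4 genes of the list below all controls, 4 of 18 against 8.4% of all genes.

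Of 16 genes of mature B cells 3 rose and 0 fell, against 1.98% and 2.6% of all genes, with a median of 0.27 against 0.14, which was 0.15 against the ruxolitinib vehicle only and 0.18 under TMM. Tnfrsf13c, the receptor for the survival factor BAFF, counted 21.97, 32.8 and 29.5 against 13.7 and 9.59, and 12.9 and 19.1 (log2 1.08, SE 0.31, adjusted p = 0.0362). Fcer2a, the low-affinity IgE receptor CD23, counted 6.28, 11.9 and 16.4 against 2.75 to 4.45, and was above background in 5 of the 7 lanes (log2 1.66, SE 0.43, adjusted p = 0.0167). Ccr6, a chemokine receptor of mature B cells, counted 21.97, 11.9 and 10.4 against 4.78 to 8.63 (log2 1.22, SE 0.34, adjusted p = 0.0287). Cxcr5, the receptor that leads B cells to follicles, and Ms4a1, which encodes CD20, were above every control without passing (log2 0.93, adjusted p = 0.0813, and log2 0.76, adjusted p = 0.123), while the coactivator Pou2af1 was below every control (log2 -0.69, adjusted p = 0.201).

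Of 10 genes of B cell precursors 1 fell and 0 rose, against 2.6% and 1.98% of all genes, with a median of 0.02 against 0.14 that changed sign between single mice left out, from -0.06 without ruxolitinib-treated mouse 1 to 0.095 without ruxolitinib vehicle mouse 2. The gene that fell was Igll1, a part of the surrogate light chain of the pre-B cell receptor, which counted 46.4, 50.3 and 32.8 against 88.8 and 81.5, and 92.8 and 69.3 (log2 -0.94, SE 0.25, adjusted p = 0.0194). In the same list Cd79b, a signalling chain of the B cell receptor at all later stages, lay above every control (155 to 172 against 89.01 to 115.4, log2 0.69, adjusted p = 0.255). Of the B cell markers, Cd79b and Ms4a1 (65.1 to 92.2 against 37.6 to 55.03) lay above every control, while Cd79a (11.5 to 14.7 against 7.17 to 12.8) and the transcription factor Pax5 (127 to 171 against 123 to 187) overlapped with the controls. None of these 4 was called, their counts summed to 378 to 432 after ruxolitinib against 274 to 348 in the controls with no overlap, and their part in the changes of MHC-II and mature B cell genes was not tested. In whole marrow, more cells of a type and more RNA per cell cannot be told apart. The calls of Tnfrsf13c, Fcer2a, Ccr6 and Igll1 were lost without 5, 3, 4 and 4 of the 7 mice, with adjusted p up to 0.212, 0.215, 0.273 and 0.212. With DESeq2 the adjusted p of Tnfrsf13c, Fcer2a and Ccr6 were 0.186, 0.0921 and 0.186, and with limma 0.543, 0.162 and 0.331, so all 3 calls among mature B cell genes were lost. Igll1 lost its call with limma (0.136), with limma after background subtraction (0.256), with the total count (0.119) and against either vehicle alone (0.0693 for the ruxolitinib vehicle and 0.117 for the venetoclax vehicle). For Fcer2a and Igll1 the mouse whose absence gave the highest value was ruxolitinib-treated mouse 3, for Ccr6 it was ruxolitinib-treated mouse 1, and for Tnfrsf13c ruxolitinib vehicle mouse 2. Of 6 plasma cell genes 0 were called, against 4.58% of all genes.

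Of 24 T cell genes 0 passed the test, against 4.58% of all genes, and the median was 0.19 against 0.14. It was 0.09 without venetoclax vehicle mouse 2, 0.10 without ruxolitinib-treated mouse 1 and 0.29 without venetoclax vehicle mouse 1. The T cell markers Cd3d, Cd3e, Cd3g, Cd4 and Cd8a summed to 62.8 to 69.5 against 55.8 to 60.3. Of 29 genes of NK cells and cytotoxic granules 1 fell and 0 rose, against 2.6% and 1.98% of all genes, and 19 of 29 values were below 0, against 244 of 655. The median was -0.19 against 0.14, and was -0.09 without ruxolitinib vehicle mouse 1, -0.10 without ruxolitinib-treated mouse 2, -0.325 with DESeq2 and -0.42 over genes averaging 10 or more counts. Klrc2, an activating NKG2 receptor, counted 3.77, 2.83 and 2.19 against 9.16 and 8.22, and 11.9 and 10.4 (log2 -1.70, SE 0.45, adjusted p = 0.0194). It was above background in 5 of the 7 lanes, and its close relatives in the Klrc family could share the probe. Without ruxolitinib-treated mouse 3 its adjusted p was 0.163, without ruxolitinib-treated mouse 2 0.0783 and without venetoclax vehicle mouse 1 0.0522. The call of Klrc2 was also lost with limma (0.163), with limma after background subtraction (0.135), with the total count (0.0507) and against the ruxolitinib vehicle only (0.118). Ctsw, a protease of NK and CD8+ T cells, counted 9.41, 13.6 and 8.75 against 16.8 to 21.98 (log2 -0.80, adjusted p = 0.0708), and the chemokine Xcl1 was also below every control (log2 -0.62, adjusted p = 0.336). The NK markers Ncr1, Klrb1c, Eomes and Prf1 summed to 17.5 to 21.97 against 16.7 to 31.8, so the groups overlapped.

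Among 20 immune checkpoint genes 0 were called, against 4.58% of all genes, and 4 lay above every control, against 15.4%. Icosl, the ligand of the T cell costimulator ICOS, lay at 55.9, 56.0 and 59.1 against 26.6 to 46.6 (log2 0.63, adjusted p = 0.0894), and the inhibitory receptor Btla at 79.9 to 82.0 against 43.02 to 73.6 (log2 0.50, adjusted p = 0.193).

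The largest rise was in a stromal gene. Cxcl12, the chemokine that holds stem cells and B cell precursors in the marrow, counted 212, 212 and 171 against 50.4 and 53.1, and 30.2 and 45.4. The 3 ruxolitinib-treated mice were all far above the highest control, and the 4.35-fold rise (log2 2.12, SE 0.34, adjusted p = 5.19e-05) was kept under every alternative and without any 1 of the mice. The untreated mouse read 38.4. Cxcl14, another chemokine of stromal and epithelial cells, counted 18.8, 23.2 and 16.4 against 7.33 and 4.79, and 1.08 and 7.17 (log2 1.89, SE 0.36, adjusted p = 0.000573), and was above background in 6 of the 7 lanes. Cxcl14 lost its call with limma after background subtraction (0.249).

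Of 21 stromal and endothelial genes Cxcl12 and Cxcl14 were the 2 that rose and 0 fell, against 1.98% and 2.6% of all genes. The median was 0.55 against 0.14, but 0.26 without ruxolitinib-treated mouse 2, 0.35 without ruxolitinib-treated mouse 3, 0.36 against the venetoclax vehicle only and 0.30 with limma (0.31 after background subtraction). Col4a1, a basement membrane collagen (8.16, 11.9 and 9.30 against 2.39 to 7.33, log2 1.18, adjusted p = 0.176), and fibronectin Fn1 (153, 262 and 154 against 120 to 142, log2 0.55, adjusted p = 0.429) were above every control without passing. The listed markers of stroma and endothelium summed to 229 to 273 against 83.7 to 111 with Cxcl12 included. Without Cxcl12, the other 3 (Col3a1, Cdh5 and Pecam1) summed to 52.6 to 60.9 against 38.2 to 80.9 and overlapped, and Col3a1 was at background in all 7 lanes. Of 4 epithelial genes tested 0 were called, against 4.58% of all genes. Cdh1 read 6.28, 8.48 and 10.4 against 6.50 to 10.1, and Muc1 was at background.

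Of 22 complement genes 1 rose and 0 fell, against 1.98% and 2.6% of all genes. The log2 fold change was above 0 for 19 of the 22, against 411 of 655 over all genes, and the median was 0.41 against 0.14. Clu, or clusterin, an extracellular chaperone that restrains the terminal complement complex, counted 16.9, 27.1 and 11.5 against 8.24 and 5.48, and 7.55 and 7.97 (log2 1.40, SE 0.35, adjusted p = 0.0116). Its adjusted p was 0.205 without ruxolitinib-treated mouse 2 and 0.0974 without ruxolitinib vehicle mouse 2. The call of Clu was also lost with limma (0.219), with limma after background subtraction (0.857), with DESeq2 (0.0716) and against the venetoclax vehicle only (0.179). Serping1, the inhibitor of the C1 protease, lay above every control (13.01 to 20.8 against 4.32 to 11.2, log2 1.01, adjusted p = 0.181).

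Of 26 chemokines Cxcl12 and Cxcl14 rose and Cxcl10 fell, against 1.98% and 2.6% of all genes, and the median of -0.04 had no settled sign, at 0.27 without ruxolitinib-treated mouse 1, 0.17 without ruxolitinib vehicle mouse 2, 0.32 against the venetoclax vehicle only and -0.26 over genes averaging 10 or more counts. Ccl6, a myeloid chemokine, was above every control without passing (28.2, 44.7 and 38.3 against 17.5 to 21.6, log2 0.87, adjusted p = 0.123). Of 19 chemokine receptors 2 rose, Ccr6 and Ccr1, and 0 fell, against the same shares of all genes. Ccr1, an inflammatory receptor of myeloid cells, counted 47.1, 40.2 and 53.1 against 28.4 and 30.8, and 21.6 and 14.3 (log2 0.93, SE 0.28, adjusted p = 0.0498), and its call was lost without each of the mice except ruxolitinib vehicle mouse 2, with adjusted p up to 0.231. The call of Ccr1 was lost in 9 of the 16 other alternatives, TMM (0.0808), DESeq2 (0.128) and limma (0.331) among them. Ccr7, which guides dendritic cells and lymphocytes to lymph nodes, counted 34.5, 39.6 and 36.6 against 15.9 to 26.97 (log2 0.69, adjusted p = 0.0868), and Cxcr2, the neutrophil receptor, 141 to 174 against 103 to 128 (log2 0.52, adjusted p = 0.309).

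Calls in the myeloid lists are given beside the 4.58% of all genes called in either direction. Of 25 monocyte and macrophage genes 1 fell, against 2.6% of all genes. It was Fcgr1, the high-affinity IgG receptor and an interferon-inducible gene of monocytes. Fcgr1 counted 5.02, 5.09 and 4.92 against 11.9 and 15.1, and 11.9 and 19.1 (log2 -1.54, SE 0.40, adjusted p = 0.0167). Its call was lost without 5 of the 7 mice, with adjusted p from 0.0503 to 0.0813 in those 5 fits, and kept without ruxolitinib vehicle mouse 1 or venetoclax vehicle mouse 1. The call of Fcgr1 was also lost with limma (0.136), with limma after background subtraction (0.437) and against either vehicle alone (0.0825 for the ruxolitinib vehicle and 0.062 for the venetoclax vehicle). The monocyte and macrophage markers Csf1r, Cd14, Ccr2 and Cx3cr1 summed to 404 to 477 against 400 to 540 and overlapped. Cd68, a lysosomal protein of macrophages, counted 49.6, 76.4 and 55.8 against 37.0 to 46.4, above every control without passing (log2 0.56, adjusted p = 0.374).

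Of 13 dendritic cell genes 1 was called higher, against 1.98% of all genes. Itgax, the integrin chain CD11c, counted 6.28, 6.22 and 7.11 against 2.16 to 2.75 in the controls (log2 1.40, adjusted p = 0.0376). It was above background in 3 of the 7 lanes, the ruxolitinib lanes, and in no control. The log2 value is therefore not an exact size. Its call was lost without any 1 of the 7 mice, with adjusted p up to 0.181. The call of Itgax was also lost in 7 of the 15 other alternatives in which it was tested, DESeq2 (0.255) and limma (0.173) among them. Of 17 neutrophil granule and antimicrobial genes 0 were called, with a median of 0.30 that ranged from 0.14 to 0.35 over the alternatives and was 0.18 without ruxolitinib-treated mouse 2. Elane, neutrophil elastase of promyelocytes, read 189, 270 and 241 against 102 to 189 (log2 0.67, adjusted p = 0.546), and lactoferrin Ltf 45.8, 97.3 and 86.4 against 47.9 to 61.3. Of 8 genes of eosinophils, basophils and mast cells 0 were called, though Prg2, the major basic protein of eosinophils, lay below every control (235, 347 and 287 against 412 to 645, log2 -0.89, adjusted p = 0.181).

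Among 10 stem and progenitor genes 0 were called, against 4.58% of all genes. Of these 10, 2 lay above every control and 1 below, against 15.4% and 8.4% of all genes. Slamf1 (CD150) was above every control (11.3, 15.3 and 12.6 against 3.24 to 10.99, log2 0.97, adjusted p = 0.101), as was the transcription factor Runx1 (log2 0.52, adjusted p = 0.367), and the cytokine receptor Flt3 was below (3.77, 4.53 and 4.92 against 6.37 to 11.9, log2 -0.84, adjusted p = 0.246). The 3 erythroid genes all had values below 0, against 244 of 655 over all genes, and 0 were called. Tal1 overlapped with the controls (log2 -0.145, adjusted p = 0.852), and 2 lay below every control, against 8.4% of all genes. Icam4, an adhesion molecule of red cell precursors, counted 25.1, 19.2 and 20.8 against 34.2 to 38.5 (log2 -0.75, SE 0.23, adjusted p = 0.0557), and the transferrin receptor Tfrc counted 259, 355 and 290 against 401 to 474 (log2 -0.52, SE 0.18, adjusted p = 0.115). Neither Icam4 nor Tfrc passed. Erythropoietin receptor signalling, which sustains these cells, runs through JAK2, and whether it had a part in these values was not tested. Of 8 megakaryocyte and platelet genes 0 were called, against 4.58% of all genes. The platelet chemokine Ppbp read 170, 214 and 102 against 60.2 to 126 (log2 0.96, adjusted p = 0.119). Of 5 cell division genes 0 were called, against the same 4.58%. The survivin gene Birc5 read 114 to 142 against 159 to 192 (log2 -0.41, adjusted p = 0.308).

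In the remaining signalling lists few or no genes passed, against 4.58% of all genes. Of 17 Fc receptor and Src/Syk genes Fcer2a rose and Fcgr1 fell, and of 29 TNF and lymphotoxin family genes Tnfrsf13c rose. Of 26 adhesion genes the same Itgax, at background in every control, was called higher. Of all genes 1.98% were called higher and 2.6% lower. There were 0 calls among 25 Toll-like receptor and adaptor genes, 19 inflammasome and interleukin 1 family genes, 18 NF-kappaB genes, 29 immediate early and MAPK genes, 13 BCL-2 family and apoptosis genes, 8 TGF-beta genes, 19 lysosome and autophagy genes and 18 interleukins and growth factors. The medians of these 8 lists ran from -0.06 to 0.38, and those other than that of the TGF-beta genes moved by over 1.5 times with single mice left out. Of the 148 different genes in these 8 lists, 21 (14.2%) lay above every control and 11 (7.43%) below, against 15.4% and 8.4% of all genes. Those above included the bacterial lipoprotein receptor gene Tlr1 (33.9 to 42.1 against 21.5 to 27.4, log2 0.61, adjusted p = 0.123), the kinase gene Map2k1 (log2 0.61, adjusted p = 0.16), the survival gene Bcl2 (35.6 to 50.2 against 21.5 to 35.3, log2 0.65, adjusted p = 0.181), the signal transducer gene Smad4 (log2 0.53, adjusted p = 0.226) and the cytokine gene Mif (log2 0.46, adjusted p = 0.214). Those below included Tnfaip3, a brake on NF-kappaB (23.5 to 26.4 against 31.8 to 37.5, log2 -0.46, adjusted p = 0.193). Of 101 tested genes in no list 0 were called. Over 38 lists, 25 medians kept their sign under every scaling, including those of interferon-inducible genes, MHC-II, MHC-I, mature B cells, stroma and complement. The other 13 did not, including those of nucleic acid sensing, B cell precursors and chemokines. A scaling moves all genes by about the same amount, so a changed sign shows only that a median lay near 0.

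**Figure D3:**
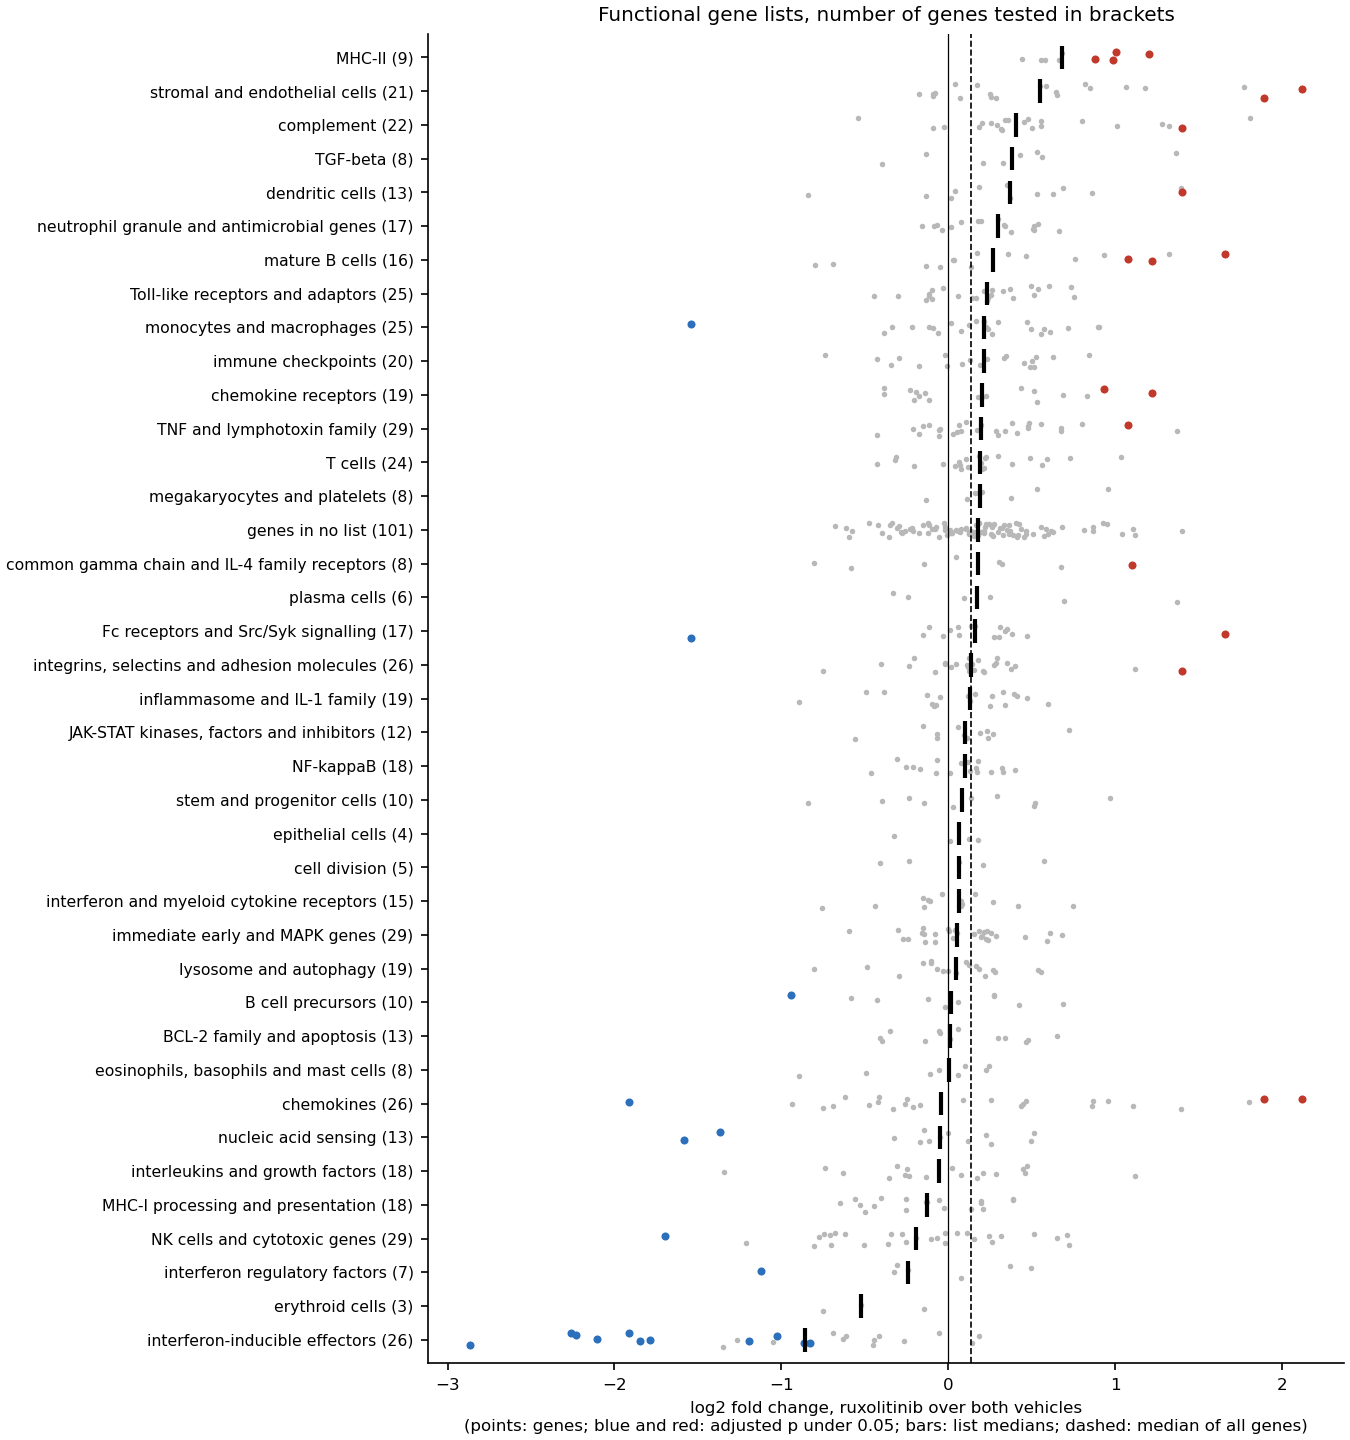
Log2 fold changes on day 1 of the genes of each functional list (grey points not called, blue called lower, red called higher) with the list median as a black bar, ordered by median. Interferon-inducible genes lie lowest at -0.86 and MHC-II genes highest at 0.68, against a median of 0.14 over all genes (dashed).

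To set these changes beside later days, the same difference was computed against both vehicles of days 3 and 7 and the changes were compared within 1 model. On day 3, 9 genes (1.37%) differed from vehicle, 2 higher (0.305%) and 7 lower (1.07%), and on day 7, 2 genes (0.305%), and of the 30 genes called on day 1, Igll1 also passed on day 3 and 0 passed on day 7. The change on day 1 differed from that on day 3 for 18 of 655 genes (2.75%) and from that on day 7 for 22 (3.36%), including 11 and 16 of the 30. Against day 3 the change was lower on day 1 for 12 genes (1.83%), 10 of them among the 30, and higher for 6 (0.916%), 1 of them among the 30. Against day 7 it was lower for 13 (1.98%), 12 of them among the 30, and higher for 9 (1.37%), 4 of them among the 30. The splits moved with scaling and test. Against day 3 they were 2 higher and 13 lower with TMM, 2 and 10 with the total count, and 0 and 8 with limma. Against day 7 they were 6 and 18 with TMM, 4 and 6 with the total count, and 1 and 3 with limma. Since the 30 were picked for their change on day 1, a smaller change on another day is partly built into that choice.

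Rsad2 had a log2 fold change of -1.84, which became 0.87 by day 3 and 0.31 by day 7, and its mean count on day 3 was 114 after ruxolitinib against 64.1 after vehicle, which did not pass on its own (adjusted p = 0.0773). The difference between day 1 and day 3 was -2.71 (SE 0.36, adjusted p = 4.37e-06 by edgeR). Ifit3 went from -2.87 to -0.35 and 0.30, and Isg15 from -2.26 to 0.72 and 0.27. Of the 13 genes called higher on day 1, Il21r differed from day 3, and Il21r, H2-DMb2, Cd74 and Tnfrsf13c differed from day 7. Tnfrsf13c showed 1.08, 0.06 and -1.28 in the order of the days. Cxcl12 showed 2.12, 1.00 and 1.02, and its later values differed neither from 0 (adjusted p = 0.213 on day 3 and 0.449 on day 7) nor from day 1 (adjusted p = 0.355 and 0.35). Igll1 showed -0.94, -1.80 and 0.24, and it passed on day 3 (adjusted p = 0.000192). Each day was read in a run of its own, so day and run cannot be told apart, and 1 ruxolitinib lane of day 3 held under 30000 counts.

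**Figure D4:**
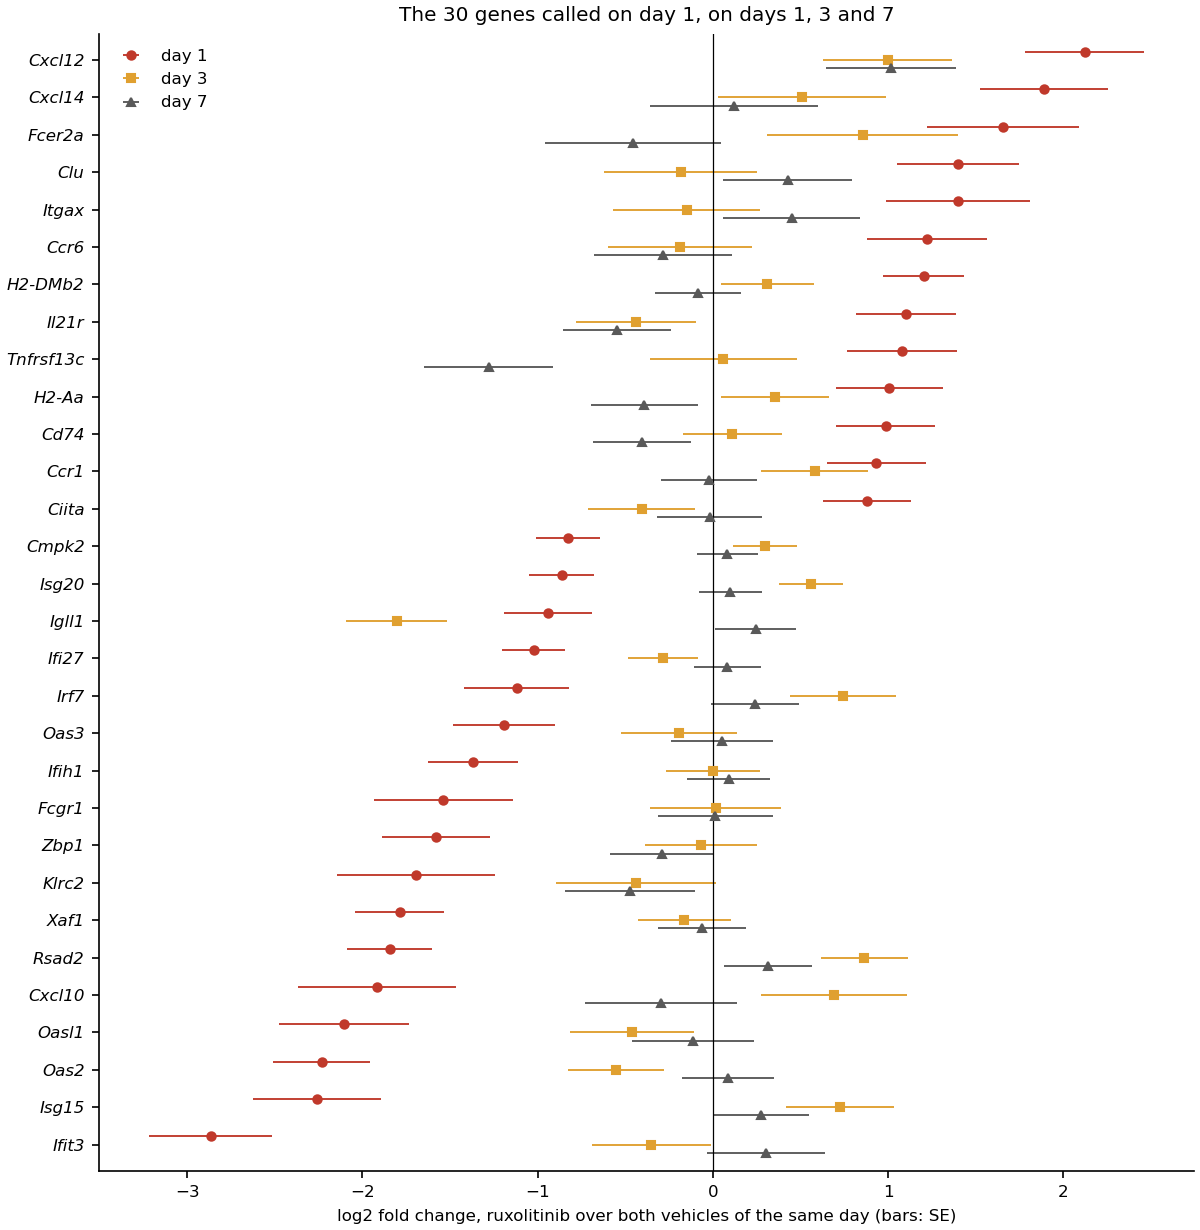
Log2 fold change of ruxolitinib over both vehicles of the same day, with its SE, for the 30 genes called on day 1. Day 1 points (circles) run from -2.87 to 2.12, while points of day 3 (squares) and day 7 (triangles) include -0.35 and 0.30 for Ifit3, 1.00 and 1.02 for Cxcl12, -1.80 for Igll1 on day 3 and -1.28 for Tnfrsf13c on day 7.

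Venetoclax, an inhibitor of BCL-2 that removes lymphocytes, was given to 3 mice of the same day and run, and ruxolitinib was set against it directly. This contrast called 68 of 655 genes (10.4%), 53 higher (8.09%) and 15 lower (2.29%) after ruxolitinib. The split was 35 higher and 18 lower with TMM, and 54 and 8 with the total count. The contrast uses the same 3 ruxolitinib-treated mice for whose values the 30 genes were chosen, so it is no independent check of them. H2-DMb2 averaged 82.2 ± 10.1 (SD, n = 3) after ruxolitinib and 10.8 ± 0.286 after venetoclax (log2 2.94, adjusted p = 4.91e-07 by edgeR), Oas2 10.4 ± 2.19 and 51.9 ± 22.9 (log2 -2.31, adjusted p = 4.35e-06), and Cxcl12 198 ± 23.6 and 53.9 ± 24.6 (log2 1.69, adjusted p = 0.00401). Rsad2 did not differ between the drugs (log2 -0.72, adjusted p = 0.133), nor did Isg20 (log2 0.14, adjusted p = 0.746). A venetoclax lane held under 30000 counts, and its H2-DMb2 reading was below background. The SD of 0.286 therefore does not show close agreement between the mice. Without the 2 such shallow lanes of the series the contrast called 64 genes, 55 of them shared with the 68.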

How the data were processed

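Total bone marrow RNA of 1 mouse per lane was counted on the nCounter in 3 runs of 11 lanes, 1 run per day. The deposited values are raw counts per probe, for 750 endogenous, 20 housekeeping, 8 negative and 6 positive control probes, and the authors' later normalisation is not in them. The sources differ in the name of the panel, and the header of the day 3 run names day 2. Background in each lane was the mean plus 2 SD of its negative probes. Each lane was divided by its geometric mean over 11 housekeeping probes, those that exceeded background in every one of the 33 lanes. Genes exceeding background in 2 or more lanes (655) entered edgeR 4.0.16 (R 4.3.3), whose quasi-likelihood test used every lane, with 21 residual degrees of freedom and Benjamini-Hochberg adjustment at 0.05. The ruxolitinib mean was set against both vehicles of its day, which entered as 1 group. The common biological coefficient of variation was 20%. The functions were tested on simulated data. Alternatives used limma 3.58.1, DESeq2 1.42.0, other scalings, filters and sets of lanes. The genes named are those called and, as examples from each list, some members with the 2 smallest p or with no overlap between groups. Markers of cell types and some list members that overlapped with the controls are also named. The members and lists were chosen with earlier results of these data known. Promoter letters came from RefSeq, GRCm38.p6. Some panel genes are not reported here.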

Additional observations from a re-analysis of the deposited data

Results flagged for a closer look

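Single vehicle-treated mice lay far from the other 3 in 3 of 103 genes checked in groups of 4, where chance gives about 1 in 20. Zbp1 counted 24.82 in venetoclax vehicle mouse 1 and 37.66 to 39.38 in the others. Tgfb3 counted 2.158 in the same mouse, near background, and 0.7967 to 1.027 in the others. Bst2, or tetherin, counted 217.7 in ruxolitinib vehicle mouse 2 and 141 to 150.2 in the others.

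Among the named genes, the change after ruxolitinib differed between day 1 and a later day for the following, which are not all the genes that differed, by the difference of log2 fold changes in edgeR, adjusted over 655 genes. Against day 3, it was lower on day 1 for Isg15 (-2.982), Rsad2 (-2.71), Cxcl10 (-2.606), Ifit3 (-2.515), Irf7 (-1.863), Oas2 (-1.681), Xaf1 (-1.625), Isg20 (-1.423), Ifih1 (-1.367), Tfrc (-1.227) and Cmpk2 (-1.124). It was higher on day 1 for Tlr1 (1.635), Il21r (1.541) and H2-Ob (1.309). Against day 7, it was lower on day 1 for Ifit3 (-3.172), Isg15 (-2.532), Oas2 (-2.321), Rsad2 (-2.157), Oasl1 (-1.994), Xaf1 (-1.727), Ifih1 (-1.458), Irf7 (-1.361), Icam4 (-1.205), Igll1 (-1.184), Ifi27 (-1.106), Isg20 (-0.9612) and Cmpk2 (-0.9087). It was higher on day 1 for Tnfrsf13c (2.359), Ms4a1 (1.928), Cd79b (1.686), Il21r (1.65), Cd74 (1.39), Tlr1 (1.312) and H2-DMb2 (1.29). Ms4a1, Cd79b, Tlr1, Tfrc, Icam4 and H2-Ob were not called on day 1 itself. Adjusted p ran from 4.37e-06 (Rsad2, day 3) to 0.0489 (Il21r, day 3).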

How the results depend on the processing

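The 30 calls became 15 with limma, 8 with limma after background subtraction, 18 against the ruxolitinib vehicle only, 19 against the venetoclax vehicle only, 93 in the 7 lanes alone and 73 in the 11 lanes of the run. With 1 mouse left out at a time they were between 19 and 23. A replicate block gave 28 calls, 27 of them shared with the 30. Same-numbered mice did not deviate together (r from -0.064 to 0.073 over 402 genes), so no pairing by number was seen. With 2 mice in each vehicle group this check is weak. Without the 2 lanes under 30000 counts, an alternative chosen after seeing the data, 30 genes were called. The calls of 7 genes (Cxcl12, Ifi27, Ifit3, Isg15, Isg20, Oas2 and Rsad2) were kept in every alternative and without each mouse, 14 were kept without each mouse, and 16 were lost without at least 1. No called gene changed direction. Cdh1, not called, ran from -0.064 to 0.282 with 1 mouse left out, and was -0.017 without ruxolitinib vehicle mouse 2. The difference of day 1 from day 3 had 8 calls with limma, and that from day 7 had 10 with the total count and 4 with limma. The 2 calls of day 7 became 1 with TMM, the total count, limma, no filter, the replicate block, or without the shallow lanes. The cause was not tested. Genes within a few counts of background, such as Isg15, Cxcl10, Klrc2 and Itgax, have the least precise fold changes.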
